A study of Rattus norvegicus with 8 samples.

Results

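The chemokine system of the rat kidney was described here through 53 genes, which were every gene on the array named as a CC, CXC, CX3C or XC chemokine or as a typical or atypical receptor of one. They were chosen by name alone: a probe belonged if its transcript accession mapped to such a symbol in RefSeq. This gave 57 probes of the 30367 on the array. Of the 53 genes, 33 coded for ligands and 20 for receptors, out of 26633 genes or unnamed transcripts on the array. RefSeq lists 57 symbols of this kind in the rat, and 4 of them (Ackr1, Ackr4, Ccr8 and Cxcl3) had no matched probe.

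The samples were kidneys of male SD rats, an outbred laboratory strain, aged 10 weeks. The Control group had 4 samples, from rats given 0.5% methylcellulose, a vehicle, for 4 weeks. The other group, labelled APL, had 4 samples from rats given APL at 150 mg/kg for 4 weeks. APL is read here as allopurinol, an inhibitor of xanthine oxidase, because the title names that drug as the agent that produced the fibrosis model. The title speaks of renal tubules and the tissue label says kidney. Podocyte genes such as Synpo, which mark the glomerulus, were above background, and all 5 podocyte markers passed the detection filter. The labels do not say that the samples of a group came from separate animals, so the p-values measure only the spread between these samples, which may be technical.

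Chemokines are small secreted proteins that bind to glycosaminoglycans on endothelium and matrix and draw leukocytes along a gradient. Their receptors are G protein-coupled receptors carried mostly by leukocytes, and the atypical receptors take ligands up without this signalling. Inflammatory chemokines are switched on in injured epithelium, endothelium, fibroblasts and macrophages, whereas homeostatic chemokines are made steadily and guide lymphocytes and progenitors. In the kidney, tubular cells are a known source of Ccl2 and Cxcl1 after injury.

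Levels are given as log2 of the processed signal relative to the 75th percentile of its own array, so 0 is that percentile and -7.64 is the floor set for the lowest signals. A level of 1 probe cannot be set against that of another probe. A gene was tested if its probe stood well above the local background on at least 4 of the 8 arrays, and it was called at a limma p, adjusted over all 21416 genes tested, under 0.05. The error after ± is the moderated standard error with 4 samples a group, unless a missing value is stated. In signal units this percentile came to 291 ± 18 for Control and to 455 ± 53.0 for APL (SD, n = 4 each, exact two-sided permutation p = 0.0286, the smallest that 70 splits allow). Brightness therefore moved with the group, and its part in the results was not tested beyond the fits with other scalings. With no scaling the median change of all genes moved from -0.03 to 0.61, and with normexp background correction and the same percentile to 0.36.

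The arrays detected more ligands after APL. The ligands well above background numbered 24, 23, 25 and 21 of 33 on Control arrays 1 to 4. They numbered 28, 30, 27 and 32 on APL arrays 1 to 4, every one above every Control array. The receptors detected numbered 11, 10, 9 and 10 of 20 on the Control arrays and 13, 11, 12 and 13 on the APL arrays, where the groups met at 11. Over all probes the detected share also differed, at 75% ± 1.53 in Control and 80.8% ± 0.839 with APL (SD, n = 4 each, exact two-sided permutation p = 0.0286). Of the 33 ligands, 11 were detected on more APL than Control arrays and 2 on more Control arrays. Of the 20 receptors, the same counts were 7 and 1. The ligand Ccl25 and the receptors Ccr3, Ccr4 and Cxcr1 were above background on no array.

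**Figure D1:**
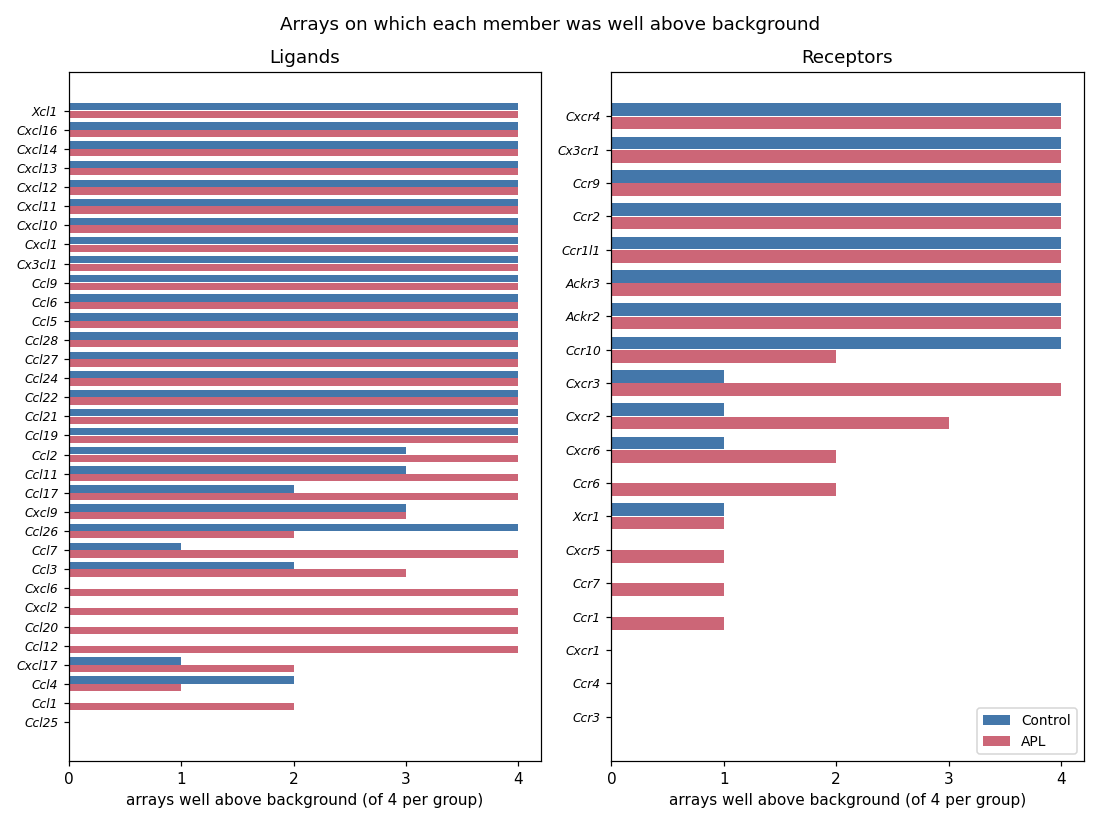
Number of arrays, out of 4 in each group, on which each gene reported here stood well above background, with Control and APL side by side and ligands apart from receptors. Ccl20, Cxcl6, Ccl12 and Cxcl2 go from 0 Control arrays to 4 APL arrays, and 18 ligands were detected on all 8 arrays.

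Of the 29 ligands tested, 9 were higher and 4 lower with APL, which is 44.8% called, and their median log2 change was 0.34. Over all genes tested 23.5% were called, 11.9% higher and 11.5% lower, with a median of -0.03. The 29 include 4 ligands (Ccl20, Cxcl6, Ccl12 and Cxcl2) that passed the filter through the APL arrays alone and so had to differ. Requiring 2 arrays of each group above background left out these 4 and Ccl7. Of the 24 ligands left, 4 were higher and 4 lower, with a median of -0.16, beside 22.0% of all genes called, 10.5% higher and 11.5% lower. With no filter all 33 ligands were tested, and 9 were higher and 4 lower, beside 19.8% of all genes called, 9.18% higher and 10.6% lower. The split moved with the scaling. With no scaling 11 ligands were higher and 2 lower, where 32.6% of all genes were called, 27.3% higher and 5.3% lower. With normexp and percentile scaling 6 were higher and 1 lower, where 9.4% of all genes were called, 4.86% higher and 4.54% lower. The ligand median came close to 0 without Control 2 (-0.01), without APL 3 (-0.01) and with normexp and quantile normalization (0.0081). Normexp adds an offset of 50 to each signal, and the changes of several ligands were smaller with it. With percentile scaling and with quantile normalization, in that order, Ccl20 changed by 2.79 and 2.10, Ccl2 by 2.07 and 1.79, Cxcl10 by 1.78 and 1.40 and Cxcl6 by 1.41 and 0.65, and all 4 stayed called.

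The ligands that draw neutrophils through Cxcr2 were higher. All 3 with a probe, Cxcl1, Cxcl2 and Cxcl6, were called higher, beside 11.9% of all genes tested, with a median log2 change of 3.69. Cxcl2 and Cxcl6 passed the filter through the APL arrays alone and so had to differ, which leaves Cxcl1 as the ligand whose call was open. The 3 genes lie side by side on chromosome 14 in RefSeq, together with Cxcl3, which had no probe. Cxcl1, the rat counterpart of the growth-related oncogene, stood at -2.62, -2.01, -1.84 and -3.64 in Control samples 1 to 4 and at 0.71, 1.82, 1.82 and 0.29 in APL samples 1 to 4. Every APL value lay above every Control value. The difference was 3.69 ± 0.51 (adjusted p = 0.00181, limma), or 12.9-fold, and it was detected on all 8 arrays.

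Cxcl6 was at the floor of -7.64 in Control samples 2, 3 and 4 and at -7.47 in Control 1, against -4.69, -3.01, -1.54 and -2.41 with APL. No Control array had it above background, and all 4 APL arrays did. The signal was at least 8.30-fold higher with APL (adjusted p = 0.00118). A lower bound of this kind sets the APL mean against the lowest detectable signal of each Control array. It applies only to the floor and background correction used here. With a floor of 0.02 or with normexp, the fitted changes of Ccl20, Cxcl6, Ccl12 and Cxcl2 were smaller than their bounds. Cxcl2, also called macrophage inflammatory protein 2, stood at -6.78, -6.69, -6.38 and -7.16 in Control and at -3.02, -5.32, -2.70 and -3.36 with APL. The groups did not overlap, with APL 2 nearest to Control, and the signal was at least 5.13-fold higher (adjusted p = 0.00542). With normexp background correction the call on Cxcl2 was lost (adjusted p = 0.199 after percentile scaling and 0.0541 after quantile normalization). A floor of 0.02 in place of 0.005 moved the log2 change from 4.69 to 2.73 for Cxcl6 and from 3.15 to 2.04 for Cxcl2, and both stayed called.

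Neutrophil markers were set beside these ligands. Of 8 neutrophil markers with a probe 5 were tested. Of these 2 rose, beside 11.9% of all genes tested: S100a8, at least 33.9-fold (adjusted p = 6.67e-05), and S100a9, by 2.77 ± 0.34. S100a8 passed the filter through the APL arrays alone. Csf3r (adjusted p = 0.485, limma), Camp (0.672) and Fcnb (0.292) were not called. The summed scaled signal of the 8 markers ranged from 0.122 to 0.148 in Control and from 0.656 to 1.38 with APL. S100a8 made up the largest part of this sum in every APL sample. Mmp8, a granule protease that defines mature neutrophils, was above background on no array. Elane, on 1 Control and 0 APL arrays, and Ltf, on 0 Control and 3 APL arrays, failed the filter. The part of cell numbers in the ligand levels was not tested, and in whole tissue more cells of a type and more RNA per cell cannot be told apart, nor can fewer cells and less RNA per cell.

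The promoters of 8 ligands are shown so that the letters can be read beside the values: neutrophil and Ccr2 ligands that rose, the ligand with the largest increase, and neighbours that moved in opposite directions. Each is 300 bases, 250 before and 50 after the annotated start, from RefSeq on GRCr8, 5′ to 3′ on the strand of the gene. Capitals mark matches, on either strand, to the NF-kB motif, to TGANTCA (the AP-1 motif) or to a pair of interferon response half-sites (GAAA, any 2 bases, GAAA), and overlapping matches form 1 run of capitals. The first 3 are the neutrophil ligands Cxcl1 (chr14:17479272-17479571, minus strand), Cxcl2 (chr14:17467206-17467505, minus strand) and Cxcl6 (chr14:17596368-17596667, minus strand). Ccl7 (chr10:67513845-67514144, plus strand) and Ccl12 (chr10:67567626-67567925, plus strand) are Ccr2 ligands, and Ccl2 is not in the promoter table. Ccl20 (chr9:91836909-91837208, plus strand) had the largest increase. Cxcl10 (chr14:15988816-15989115, plus strand) and Cxcl11 (chr14:15973478-15973777, plus strand) are neighbours that moved in opposite directions.
Cxcl1: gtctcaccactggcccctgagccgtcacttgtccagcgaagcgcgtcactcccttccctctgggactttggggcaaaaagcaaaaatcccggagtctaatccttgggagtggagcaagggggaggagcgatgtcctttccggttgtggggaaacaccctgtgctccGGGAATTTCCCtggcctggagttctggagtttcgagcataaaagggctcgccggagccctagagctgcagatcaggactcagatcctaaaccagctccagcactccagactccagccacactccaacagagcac
Cxcl2: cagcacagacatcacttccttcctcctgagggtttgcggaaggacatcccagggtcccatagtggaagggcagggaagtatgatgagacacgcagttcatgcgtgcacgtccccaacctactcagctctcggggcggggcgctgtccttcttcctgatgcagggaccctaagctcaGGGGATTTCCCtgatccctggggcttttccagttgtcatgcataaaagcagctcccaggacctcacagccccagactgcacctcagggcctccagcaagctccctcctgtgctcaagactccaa
Cxcl6: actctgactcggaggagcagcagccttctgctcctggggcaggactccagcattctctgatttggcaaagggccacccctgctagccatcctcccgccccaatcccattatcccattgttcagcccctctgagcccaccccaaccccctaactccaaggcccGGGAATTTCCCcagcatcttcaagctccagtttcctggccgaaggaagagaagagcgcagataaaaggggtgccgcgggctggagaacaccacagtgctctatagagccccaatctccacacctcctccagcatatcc
Ccl7: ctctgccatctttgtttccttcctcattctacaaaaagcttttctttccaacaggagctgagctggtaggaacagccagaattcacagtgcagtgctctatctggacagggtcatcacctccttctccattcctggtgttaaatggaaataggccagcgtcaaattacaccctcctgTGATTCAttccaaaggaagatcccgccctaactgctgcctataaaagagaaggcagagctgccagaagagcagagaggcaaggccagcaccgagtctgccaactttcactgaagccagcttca
Ccl12: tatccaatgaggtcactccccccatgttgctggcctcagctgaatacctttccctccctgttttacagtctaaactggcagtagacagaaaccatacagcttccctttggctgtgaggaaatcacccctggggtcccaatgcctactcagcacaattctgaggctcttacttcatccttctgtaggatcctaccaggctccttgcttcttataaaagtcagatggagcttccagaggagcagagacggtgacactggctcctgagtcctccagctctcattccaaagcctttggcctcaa
Ccl20: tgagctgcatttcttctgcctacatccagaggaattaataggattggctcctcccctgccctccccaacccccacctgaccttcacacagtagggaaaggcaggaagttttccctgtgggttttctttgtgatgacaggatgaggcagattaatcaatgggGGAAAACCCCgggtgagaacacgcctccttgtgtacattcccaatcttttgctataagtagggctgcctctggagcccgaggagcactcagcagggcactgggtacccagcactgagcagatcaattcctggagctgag
Cxcl10: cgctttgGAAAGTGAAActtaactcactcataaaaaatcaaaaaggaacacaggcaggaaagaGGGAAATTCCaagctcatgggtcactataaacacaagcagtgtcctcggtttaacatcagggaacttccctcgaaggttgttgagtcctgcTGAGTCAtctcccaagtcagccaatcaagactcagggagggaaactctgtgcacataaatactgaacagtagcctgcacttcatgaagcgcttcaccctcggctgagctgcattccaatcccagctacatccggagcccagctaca
Cxcl11: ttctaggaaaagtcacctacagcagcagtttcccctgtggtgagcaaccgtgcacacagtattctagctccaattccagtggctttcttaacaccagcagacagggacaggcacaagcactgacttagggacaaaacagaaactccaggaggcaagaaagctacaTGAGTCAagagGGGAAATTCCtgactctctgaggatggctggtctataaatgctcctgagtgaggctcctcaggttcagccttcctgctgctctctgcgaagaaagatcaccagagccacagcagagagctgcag

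In Cxcl1, Cxcl2 and Cxcl6 the NF-kB motif matched at overlapping positions whose first bases lie 84 and 83, 74 and 73, and 88 and 87 bases before the start. In Ccl7 and Ccl12 the NF-kB motif was not found. In Ccl20 the match begins 89 bases before the start, in Cxcl10 it begins 187 and in Cxcl11 it begins 74. Over all 27457 promoters in the table, 4.16% hold this motif, 7.33% hold TGANTCA and 3.77% hold the pair of GAAA half-sites. Promoters were listed for 42 of the 53 genes. The NF-kB motif was found in 5 of the 9 higher genes with a promoter, in 1 of the 5 lower genes and in 2 of the 28 others (Ccl9 and Ccr3). TGANTCA was found in Ccl7 and Cxcl10 among the higher genes, in Cxcl11 among the lower genes and in 4 of the 28 others. The pair of half-sites was found in Cxcl10, which was higher, and in Ccl19, which was lower. A match describes these letters and is no evidence of binding.

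**Figure D2:**
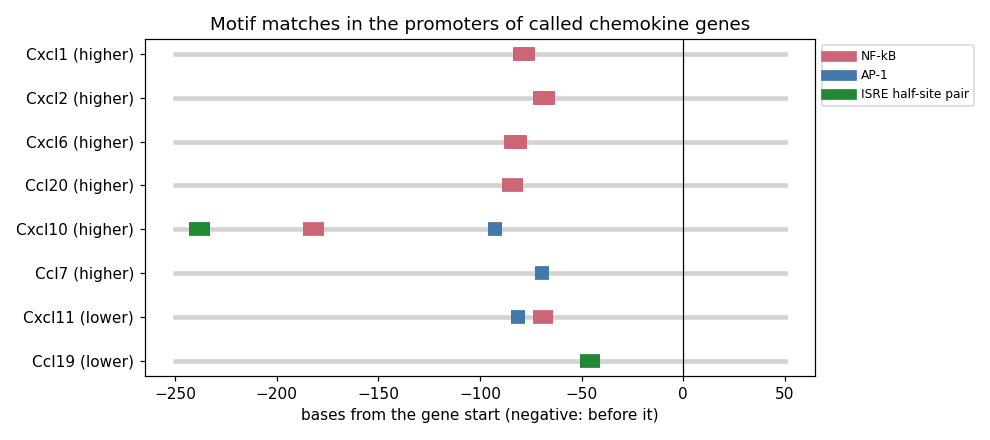
Positions of the 3 motifs in the 300-base promoters of chemokine genes, drawn as distance in bases from the annotated start, with each gene's call beside its name. The NF-kB matches of Cxcl1, Cxcl2, Cxcl6 and Ccl20 lie between 73 and 89 bases before the start, and Cxcl11, which was lower, has one at 74.

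The ligands of Ccr2, the receptor of inflammatory monocytes, also rose. Ccl2, Ccl7 and Ccl12 were all called higher, whereas the other monocyte-attracting ligands tested were not called, so that 3 of 8 were higher and 0 lower at the adjusted threshold (1 was lower at an unadjusted p under 0.05, limma). That is 37.5% called, beside 23.5% of all genes tested, 11.9% higher and 11.5% lower. The median of the 8 was 1.15. Of these, Ccl12 passed the filter through the APL arrays alone and so had to differ. Ccl2, monocyte chemoattractant protein 1, stood at -6.59, -3.69, -5.81 and -5.48 in Control and at -0.28, -0.33, -0.76 and -0.30 with APL. The APL values were close to each other and the Control values were spread, with Control 2 the highest of them, and the groups did not overlap. The difference was 4.97 ± 0.56 (adjusted p = 0.000664, limma), or 31.4-fold.

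Ccl7 stood at -5.62, -6.79, -5.93 and -7.37 in Control and at -2.52, -2.09, -2.39 and -2.78 with APL. It was above background on 1 Control array and on all 4 APL arrays, and the difference was 3.98 ± 0.40 (adjusted p = 0.000390). No exact fold is given, since most Control values were not above background, and a floor of 0.02 moved the change to 3.19 (adjusted p = 3.44e-05). With normexp and percentile scaling the difference was 1.19 and the call was lost (adjusted p = 0.119). With normexp and quantile normalization it was 0.67 and called (adjusted p = 0.000709). Ccl12, a further Ccr2 ligand of rodents, stood at -6.89, -6.56 and, in Control 3 and 4, at the floor of -7.64, against -4.74, -3.30, -1.91 and -3.96 with APL. Its signal was at least 5.60-fold higher (adjusted p = 0.00353), with no overlap. The call on Ccl12 was lost with normexp (adjusted p = 0.159 after percentile scaling and 0.0723 after quantile normalization), and a floor of 0.02 moved its log2 change from 3.71 to 2.17.

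Neighbouring genes did not all share a call. Ccl2, Ccl7, Ccl11, Ccl12 and Ccl1 lie in 1 run on chromosome 10. Ccl11, the eosinophil attractant eotaxin, lies within it and was not called: it stood at -5.52, -6.23, -5.12 and -5.68 in Control and at -2.83, -5.63, -6.14 and -6.36 with APL (0.40 ± 0.75, adjusted p = 0.732). Only APL 1 stood above the Control samples, and Ccl1 was not tested. A second run on the same chromosome, Ccl5, Ccl9, Ccl6, Ccl3 and Ccl4, had 4 members tested and 0 called, beside 23.5% of all genes. In it Ccl5, which attracts T cells and monocytes, stood at -1.52, -2.48, -1.32 and -1.09 in Control and at -2.44, -1.96, -3.24 and -2.09 with APL (-0.83 ± 0.40, adjusted p = 0.167). Ccl3, macrophage inflammatory protein 1-alpha, ran from -6.11 to -3.07 in Control and from -6.80 to -1.08 with APL (1.32 ± 1.19, adjusted p = 0.454). Ccl6 (0.98 ± 0.91, adjusted p = 0.467) and Ccl9 (-1.01 ± 0.84, adjusted p = 0.415) varied by more than 3 log2 units among samples of at least 1 group. Ccl4 was detected on 2 Control arrays and 1 APL array and was not tested.

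Ccl20, which recruits Ccr6-bearing dendritic cells and lymphocytes to epithelia, had the largest fitted change among the chemokine genes. It stood at -7.64, -6.59, -7.64 and -6.84 in Control, with no array above background. With APL it stood at -0.09, -2.77, 2.01 and -0.11, highest in APL 3 and lowest in APL 2. The signal was at least 53.0-fold higher with APL (adjusted p = 0.00124, limma). A second Ccl20 probe gave a log2 change of 6.97 beside the 6.94 of the first, and its highest sample was also APL 3.

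**Figure D3:**
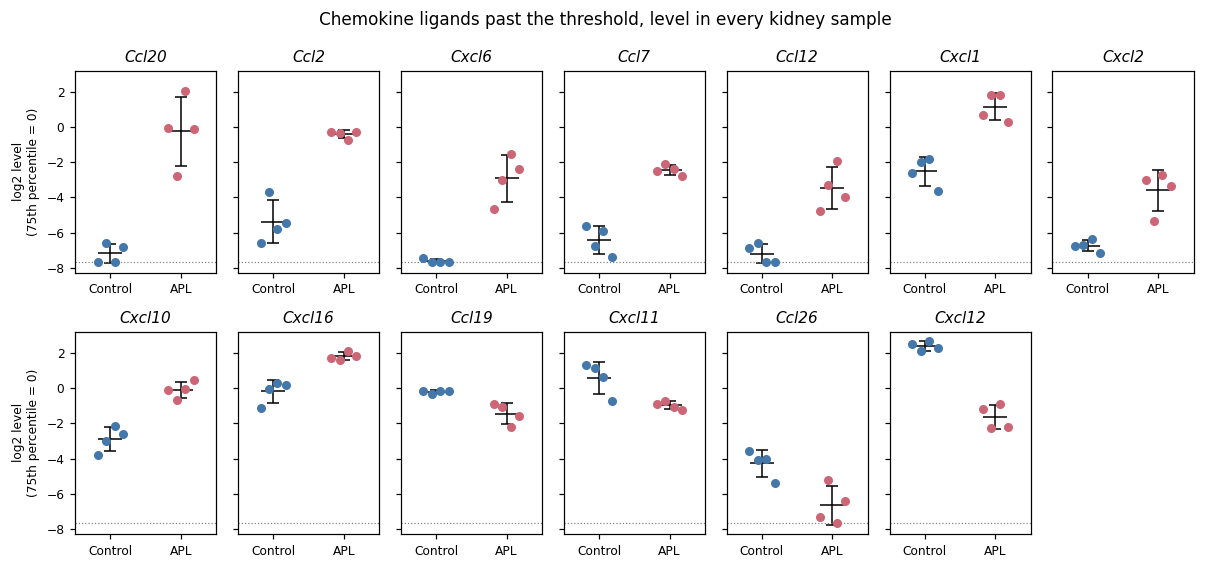
Log2 level of each called ligand in each of the 8 samples, relative to the array's 75th percentile, with bars for the mean ± SD of 4 samples and a dotted line at the floor of -7.64. For the 9 higher ligands the Control and APL points do not overlap, and of the 4 lower ligands Cxcl12 and Ccl19 do not overlap whereas Ccl26 and Cxcl11 do.

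The ligands of Cxcr3, which interferons induce and which attract activated T cells, split. Cxcl10 was higher, Cxcl11 was lower and Cxcl9 was not called, although the 3 genes are neighbours on chromosome 14. Cxcl10 stood at -3.79, -3.01, -2.17 and -2.57 in Control and at -0.11, -0.66, -0.05 and 0.47 with APL, with no overlap (2.80 ± 0.39, adjusted p = 0.00191, 6.96-fold). Cxcl11 stood at 1.31, 1.14, 0.65 and -0.71 in Control and at -0.88, -0.71, -1.06 and -1.22 with APL. Control 1, 2 and 3 lay above all APL samples, and Control 4 lay level with the highest of them. The difference of -1.56 ± 0.44 (adjusted p = 0.0361) was 2.95-fold, and it depended on the samples: without Control 4 it was -1.99 (adjusted p = 0.00261). The call on Cxcl11 was lost without any other single sample, at adjusted p-values of 0.0810, 0.0862 and 0.0717 without Control 1, 2 or 3 and of 0.0699, 0.0657, 0.0792 and 0.0922 without APL 1 to 4. It was also lost with no filter (0.0506), no scaling (0.128) and normexp with the 75th percentile (0.121). Cxcl9 stood at -5.53, -5.70, -4.98 and -6.15 in Control and at -6.23, -5.95, -7.64 and -5.78 with APL (-0.81 ± 0.45, adjusted p = 0.231), detected on 3 arrays of each group.

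Ligands grouped here as homeostatic, a list in which Cxcl16 was placed, moved in both directions. Of 8 tested, Cxcl16 was higher, Cxcl12 and Ccl19 were lower, and the median was -0.06. That is 37.5% called, beside 23.5% of all genes tested, 11.9% higher and 11.5% lower. Cxcl12, the ligand of Cxcr4 that holds progenitors and guides vessel growth, stood at 2.53, 2.08, 2.67 and 2.29 in Control and at -1.16, -2.26, -0.92 and -2.22 with APL. Every APL sample lay far below every Control sample. The fall was -4.03 ± 0.36 (adjusted p = 0.000215, limma), so the signal was 16.4-fold lower. A second Cxcl12 probe, for another transcript accession, gave -3.59, again with no overlap. Endothelial genes moved beside it: 5 of 7 endothelial markers were lower, beside 11.5% of all genes tested. Among them were Emcn (-4.18 ± 1.01, adjusted p = 0.0215), Kdr (-3.73 ± 0.28, adjusted p = 9.37e-05) and Vwf (-3.50 ± 0.50, adjusted p = 0.00205). The summed scaled signal of the 7 markers ranged from 6.33 to 11.7 in Control and from 0.711 to 1.30 with APL, and their part in the Cxcl12 level was not tested.

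Cxcl16, a membrane-bound ligand of Cxcr6 that also serves as a scavenger receptor, stood at -1.12, -0.05, 0.29 and 0.20 in Control and at 1.69, 1.62, 2.12 and 1.81 with APL. The groups did not overlap, and the difference was 1.98 ± 0.34 (adjusted p = 0.00469), or 3.94-fold. Ccl19, which guides T cells and dendritic cells through Ccr7, stood at -0.17, -0.34, -0.17 and -0.17 in Control and at -0.92, -1.04, -2.22 and -1.58 with APL. It was lower in all 4 APL samples (-1.23 ± 0.30, adjusted p = 0.0235, 2.34-fold). The call on Ccl19 was lost without Control 1 (0.0531), Control 4 (0.0519) or APL 4 (0.0631), and with the replicate number as a block (0.0624). With no scaling the change was -0.59 (adjusted p = 0.137), and with normexp and percentile scaling it was -0.84 (adjusted p = 0.234).

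Ccl21, the other Ccr7 ligand, stood at -4.94, -4.56, -4.59 and -5.09 in Control and at -5.13, -2.46, -2.88 and -3.84 with APL. Here APL 1 alone lay with the Control samples, and the difference of 1.22 ± 0.55 was not called (adjusted p = 0.147). Without APL 1 it was 1.73 (adjusted p = 0.0193). Cxcl13, the attractant of B cells, ranged from -3.66 to -0.34 in Control and from -5.67 to -2.89 with APL (-1.94 ± 0.92, adjusted p = 0.166). Cxcl14 (-0.19 ± 0.70, adjusted p = 0.865), Ccl27 (0.08 ± 0.21, adjusted p = 0.820) and Ccl28 (0.34 ± 1.14, adjusted p = 0.849) were not called. Ccl28 had 1 Control sample at 0.06 and the others between -5.38 and -3.75. Cxcl17 failed the filter.

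The ligands of type 2 responses, which act on eosinophils, basophils and Th2 cells, had 5 members tested, with Ccl26 lower and 0 higher (0 also at an unadjusted p under 0.05). That is 20% called, near the 23.5% of all genes tested. Ccl26 stood at -3.56, -4.05, -4.04 and -5.36 in Control and at -7.34, -5.19, -7.64 and -6.40 with APL, where APL 2 lay above Control 4. The difference was -2.39 ± 0.60 (adjusted p = 0.0256). The call on Ccl26 was lost without Control 1 (0.0622), Control 2 (0.0602), Control 3 (0.0563), APL 1 (0.0635), APL 3 (0.0606) or APL 4 (0.0563). With normexp and percentile scaling the direction turned, to 0.25 (adjusted p = 0.813). A floor of 0.02 moved it to -1.28, and normexp with quantile normalization to -0.32, and in both it stayed called.

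Ccl24, eotaxin 2 and the neighbour of Ccl26 on chromosome 12, stood at 5.47, 5.50, 5.52 and 5.47 in Control and at 5.16, 5.18, 4.85 and 4.63 with APL. The groups did not overlap and the difference was small (-0.53 ± 0.19, adjusted p = 0.0860). It was called with no filter (0.0352) and with an intensity trend in limma's prior (0.0170). Ccl22 ranged from -4.34 to -3.71 over all 8 samples (-0.12 ± 0.22, adjusted p = 0.717). Ccl17 was spread in both groups (-0.52 ± 1.11, adjusted p = 0.763).

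Cx3cl1 and Xcl1 stand alone in their families. Cx3cl1, fractalkine, is a membrane-bound adhesion ligand of Cx3cr1. It stood at 2.73, 3.0, 3.93 and 3.67 in Control and at 1.80, 2.37, 3.11 and 2.54 with APL, and the groups overlapped. The difference of -0.88 ± 0.37 was not called (adjusted p = 0.127). With the slide as a block it was called (adjusted p = 0.0402). Xcl1, lymphotactin, stood at -2.23, -1.57, -1.76 and -2.18 in Control and at -1.34, -0.40, 0.78 and -1.20 with APL. All APL samples were above all Control samples, and the difference of 1.40 ± 0.47 missed the threshold (adjusted p = 0.0663). With no scaling Xcl1 was called higher (adjusted p = 0.0142, limma). A second Xcl1 probe, above background on 0 Control and 3 APL arrays, failed the filter and gave a log2 change of 2.44.

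Of the 11 receptors tested, 1 was higher and 2 lower, which is 27.3% called beside 23.5% of all genes, with a median of 0.02. The groups did not overlap for 2 of the 11 receptors and for 13 of the 29 ligands, beside 29.9% of all genes tested. The 13 include Ccl20, Cxcl6, Ccl12 and Cxcl2, which passed the filter through the APL arrays alone and so had to differ. With all 20 receptors tested and no filter, 0 were higher (1 at an unadjusted p under 0.05, limma) and 2 were lower. The other 9 receptors, Ccr1, Ccr3, Ccr4, Ccr6, Ccr7, Cxcr1, Cxcr5, Cxcr6 and Xcr1, were each above background on at most 3 arrays, so a change in them was not detectable here.

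Ccr10, the receptor of Ccl27 and Ccl28 on skin- and mucosa-homing lymphocytes, fell by more than any other chemokine receptor tested. It stood at -2.51, -2.19, -0.95 and -2.36 in Control and at -6.12, -5.60, -7.13 and -7.64 with APL. The groups were far apart, and 2 APL arrays still had it above background. The difference was -4.62 ± 0.53 (adjusted p = 0.000734). No exact fold is given, since APL values lie at or near the floor, and a floor of 0.02 moved the change to -3.63 (adjusted p = 0.000288). With normexp and percentile scaling it was -0.57 and not called (adjusted p = 0.658), and with normexp and quantile normalization it was -1.02 and called (adjusted p = 0.00461). T cell and B cell markers were set beside it. Of 6 T cell markers tested 0 were called (1 higher and 1 lower at an unadjusted p under 0.05, limma), with a summed scaled signal of 2.12 to 2.64 in Control and 1.76 to 2.51 with APL. Of 3 B cell markers tested 0 were called (0 at an unadjusted p under 0.05), at 3.17 to 4.29 and 2.31 to 3.22. Over all genes tested 23.5% were called. The T cell genes Cd247, Cd2 and Cd5 were above background on no array, and the part of lymphocyte numbers in Ccr10 was not tested.

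Cx3cr1, the fractalkine receptor of resident kidney macrophages and patrolling monocytes, stood at 5.99, 6.09, 6.09 and 5.92 in Control and at 5.39, 5.66, 5.21 and 5.42 with APL. The groups did not overlap, but the difference was small (-0.60 ± 0.18, adjusted p = 0.0447, 1.52-fold). The call on Cx3cr1 was lost without any 1 of the 8 samples, at adjusted p-values of 0.0830, 0.0983, 0.0887 and 0.0717 without Control 1 to 4 and of 0.0865, 0.0541, 0.104 and 0.0915 without APL 1 to 4. With no scaling between arrays it was 0.03 (adjusted p = 0.894), so its direction rested on the scaling, and with quantile normalization it was -0.41 (adjusted p = 0.135). The call was also lost with the slide as a block (0.0554) and with normexp (0.106 after percentile scaling and 0.142 after quantile normalization).

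Cxcr3, the receptor of Cxcl9, Cxcl10 and Cxcl11 on activated T cells, was the receptor called higher. It stood at -5.15, -6.12, -6.29 and -6.10 in Control and at -3.84, -2.89, -4.69 and -5.25 with APL. Control 1 lay just above APL 4, and 1 Control array against 4 APL arrays had it above background. The difference was 1.75 ± 0.52 (adjusted p = 0.0455). The call on Cxcr3 was lost without Control 2 (0.0971), Control 3 (0.0968), Control 4 (0.0917), APL 1 (0.101), APL 2 (0.0796) or APL 3 (0.0623), and with no filter (0.0666), a floor of 0.02 (0.0789) or normexp (0.565 after percentile scaling and 0.128 after quantile normalization).

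Cxcr2, the receptor through which Cxcl1, Cxcl2 and Cxcl6 act on neutrophils, was not called. It stood at -7.45, -6.26, -6.00 and -5.79 in Control and at -2.94, -6.41, -6.25 and -5.00 with APL, where APL 1 was far above and APL 2 and 3 lay within the Control range (1.22 ± 0.78, adjusted p = 0.292). Ccr2, the receptor of Ccl2, Ccl7 and Ccl12, stood at -4.24, -4.93, -4.23 and -4.78 in Control and at -0.22, -6.06, -4.30 and -0.30 with APL. APL 1 and APL 4 lay about 4 log2 units above Control, whereas APL 2 and APL 3 lay at or below it (1.82 ± 1.29, adjusted p = 0.339). Ccr6, the receptor of Ccl20, was above background on 0 Control and 2 APL arrays and reached -2.10 in APL 3.

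Cxcr4, the receptor of Cxcl12, stood at -2.89, -3.58, -5.19 and -2.13 in Control and at -2.73, -3.12, -3.28 and -2.48 with APL. All 4 APL values lay inside the Control range (0.55 ± 0.61, adjusted p = 0.543). Ackr3, the atypical receptor that removes Cxcl11 and Cxcl12, ranged from -4.35 to -3.62 in Control and from -3.73 to -2.33 with APL (0.70 ± 0.35, adjusted p = 0.182). Ackr2, a scavenger of inflammatory CC ligands, changed by -0.30 ± 0.29 (adjusted p = 0.485).

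Ccr9, the receptor of Ccl25 on gut-homing T cells, stood at 2.97, 3.06, 3.34 and 2.84 in Control and at 3.16, 3.31, 3.20 and 2.62 with APL. The groups overlapped almost fully (0.02 ± 0.23, adjusted p = 0.966), and Ccl25 was above background on no array. Ccr1l1 changed by -0.66 ± 0.31 (adjusted p = 0.166).

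**Figure D4:**
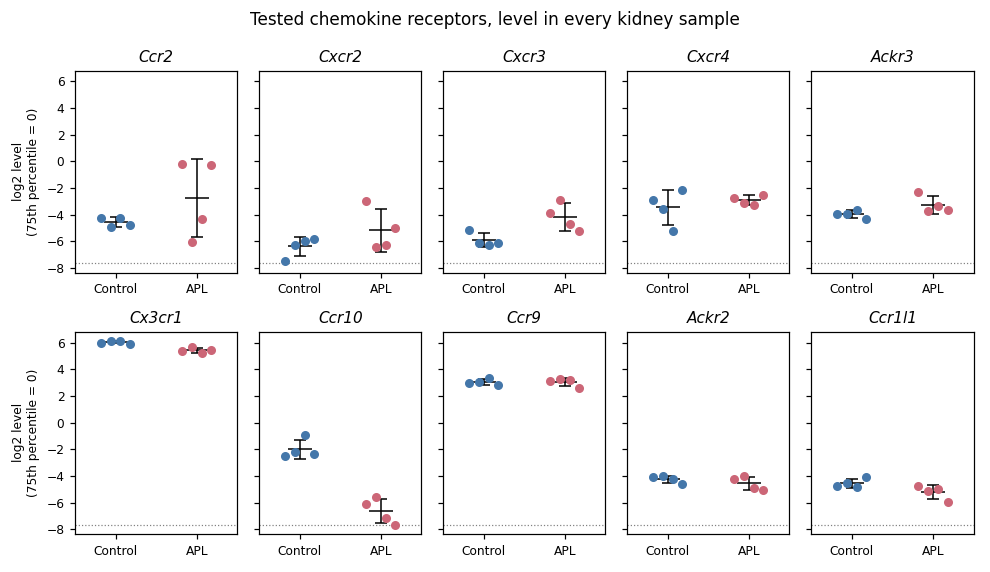
Log2 level of each tested receptor reported here in each of the 8 samples, relative to the array's 75th percentile, with bars for the mean ± SD of 4 samples and a dotted line at the floor of -7.64. Ccr10 and Cx3cr1 are the receptors whose groups do not overlap, and the APL samples of Ccr2 fall near -0.3 in APL 1 and 4 and below -4 in APL 2 and 3.

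Ligands and their receptors were then set side by side. The 3 Ccr2 ligands were called higher, Ccl2 by a log2 change of 4.97, Ccl7 by 3.98 and Ccl12 at least 5.60-fold, and Ccr2 was not called. The 3 Cxcr2 ligands measured were higher, Cxcl1 by 3.69, Cxcl6 at least 8.30-fold and Cxcl2 at least 5.13-fold, and Cxcr2 was not called. Among these ligands Ccl12, Cxcl6 and Cxcl2 passed the filter through the APL arrays alone and so had to differ. Cxcl12 was lower by -4.03 while its receptors Cxcr4 and Ackr3 were not called, and Ccr10 was lower by -4.62 while its ligands Ccl27 and Ccl28 were not called. In the Cxcr3 set the receptor and Cxcl10 were higher and Cxcl11 was lower. Means over genes were taken where at least 2 arrays of each group were above background, which leaves out the ligands that passed through the APL arrays alone. The rule also leaves out Ccl7, Cxcr2 and Cxcr3, each above background on 1 Control array. Ccl7 was a ligand called higher, and Cxcr3 was the receptor called higher. Over the 24 such ligands the mean log2 level was -1.99, -2.30, -1.72 and -2.42 in Control and -2.17, -1.81, -1.90 and -2.03 with APL. Over the 9 such receptors it was -1.88, -1.88, -1.73 and -1.65 in Control and -1.47, -2.46, -2.75 and -2.08 with APL. In both sets the groups overlapped. Whether ligands and receptors differ from each other was not tested.

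**Figure D5:**
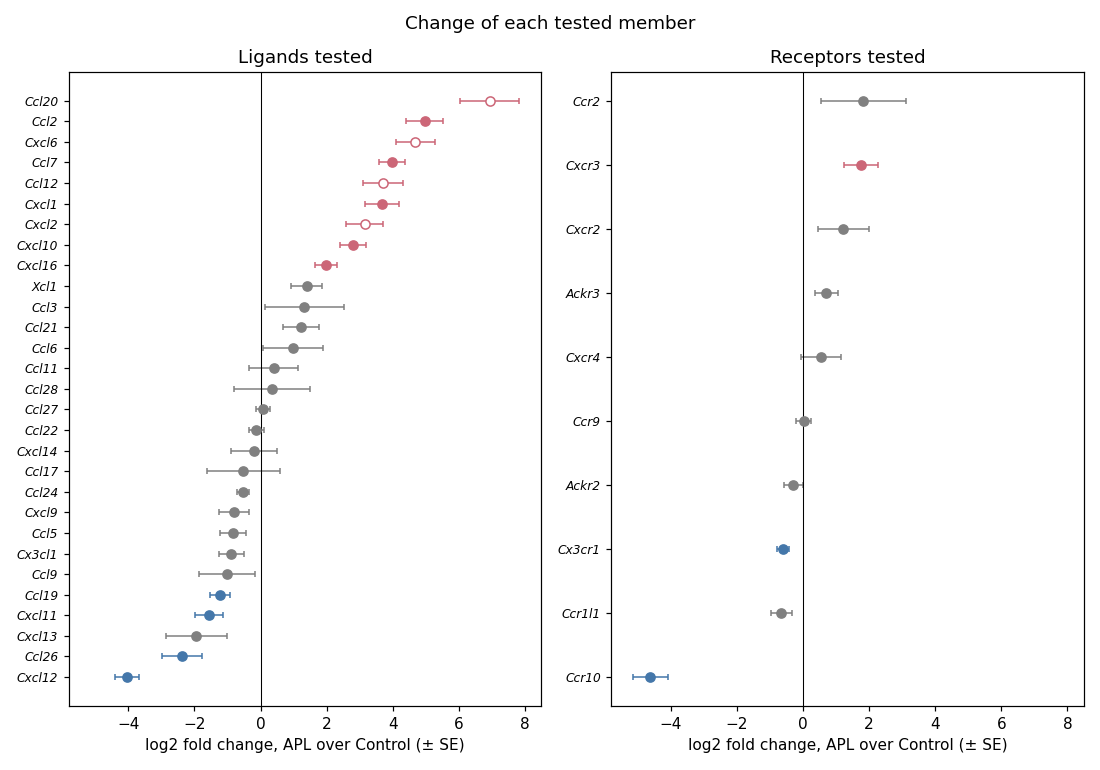
Log2 change, APL minus Control, of the chemokine genes tested and reported here, with bars for the moderated standard error, ligands apart from receptors. Called higher is red, called lower blue and not called grey, and open circles mark genes above background on no Control array, for which the plotted value is no bound. The ligands run from -4.03 to 6.94 and the receptors from -4.62 to 1.82.

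Monocyte and macrophage genes stood beside the Ccr2 ligands. Of 10 markers tested 5 rose, the largest 3 being Cd14, Cd68 and C1qb, and 0 fell (0 also at an unadjusted p under 0.05, limma). Of the 10 changes 7 were positive. The 3 negative ones, Adgre1 (-0.34 ± 0.55), Csf1r (-0.24 ± 0.47) and Marco (-0.10 ± 0.34), were not called. Over all genes tested 23.5% were called, 11.9% higher and 11.5% lower. The summed scaled signal of all 13 macrophage markers on the array ranged from 4.74 to 11.7 in Control and from 20.9 to 26.5 with APL. The part of macrophage numbers in the ligand levels was not tested. Of 3 natural killer cell markers tested 0 were called (0 at an unadjusted p under 0.05), at 0.401 to 0.718 in Control and 0.235 to 0.446 with APL. Proximal tubule genes fell in 6 of 8 cases and rose in 1, and their summed scaled signal went from between 345 and 407 to between 38.3 and 58.2. Fibroblast genes rose in 2 of 6 cases, Col1a1 (2.12 ± 0.38) and Col3a1 (2.01 ± 0.44), and fell in 1.

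Genes that induce or regulate chemokine transcription were higher in 10 of 19 cases tested and lower in 0 (0 also at an unadjusted p under 0.05, limma), with a median of 1.78. They were 52.6% called, beside 23.5% of all genes, of which 11.9% were higher and 11.5% lower. The list does not separate genes that raise chemokine transcription from genes that lower it. The largest increases were those of the AP-1 family genes Atf3 (5.50 ± 0.91, adjusted p = 0.00415) and Fos (5.48 ± 0.67, adjusted p = 0.000931) and the interferon regulator Irf7 (3.52 ± 0.50, adjusted p = 0.00197). Among the cytokines of the list, named after their values were seen, Il1b was higher (2.28 ± 0.37, adjusted p = 0.00391). Il17a was tested and not called (0.44 ± 0.43, adjusted p = 0.493, limma). Tnf, above background on 0 Control and 3 APL arrays, Il1a, on 0 and 1, and Il6 and Ifng, on none, failed the detection filter. Genes that present or cleave chemokines were higher in 5 of 15 cases and lower in 1, beside the same shares of all genes. The higher ones were led by the matrix metalloproteinases Mmp12 (at least 15.7-fold, adjusted p = 8.16e-05), Mmp14 (4.56 ± 0.83, adjusted p = 0.00669) and Mmp2 (3.76 ± 0.68, adjusted p = 0.00637). Of these, Mmp12 passed the filter through the APL arrays alone and so had to differ. Dpp4, the peptidase that trims Cxcl12, Cxcl10 and other chemokines, was lower (-1.79 ± 0.23, adjusted p = 0.00121).

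Signalling genes downstream of chemokine receptors were higher in 5 of 23 cases and lower in 0 (0 also at an unadjusted p under 0.05, limma), with a median of 0.83. The share called, 21.7%, is near the 23.5% of all genes called in either direction. All 5 calls were higher, beside 11.9% of all genes. The largest were Rgs1, which shortens receptor signalling (at least 11.7-fold, adjusted p = 4.84e-05), the receptor kinase Grk3 (2.29 ± 0.60, adjusted p = 0.0295) and the G protein subunit Gnb2 (1.79 ± 0.47, adjusted p = 0.0333). Rgs1 passed the filter through the APL arrays alone and so had to differ. Gnb2 had a missing value in APL 4, so its APL mean rests on APL 1 to 3. Chemokines and chemoattractant receptors outside the naming rule had 10 genes tested, of which Mif was lower (-1.56 ± 0.24, adjusted p = 0.00304) and 0 were higher (0 also at an unadjusted p under 0.05).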

How the data were processed

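RNA of each kidney sample was hybridised to 1 single-colour Agilent array of design 028282. Feature Extraction 10.5.1.1 read the arrays (protocol GE1_105_Dec08), and the build named is rn4, per the file headers. The deposited scanner files hold linear intensity values per spot, with background and spatial trends already removed from the processed signal, per the file headers. The authors' deposited table on a log2 scale was an alternative: 93.7% of its values lay within 0.01 of log2 processed signal over the array's 75th percentile, centred on each probe's median, with correlations of 0.9992 to 0.9997 per array. Its column medians were 0.0334, 0.0654, 0.0759 and 0.00539 for Control 1 to 4 and -0.0714, 0.0190, -0.135 and -0.0434 for APL 1 to 4. Its scale, centring and direction are known from that comparison alone.

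Non-uniform spots (2 to 64 per array) were left out, spots of a probe were averaged, signals were divided by the array's 75th percentile, raised to a floor of 0.005 and put on a log2 scale. The filter kept 24339 probes, and a gene was represented by its kept probe with the highest mean. Symbols came from RefSeq (GRCr8) by accession: 18643 probes had 1 symbol, 0 had several and 11724 had none. No probe sequence was used, so cross-hybridisation between near-identical family members was not examined. The test was limma's moderated test (version 3.58.1, R 4.3.3; two-sided) with Benjamini-Hochberg adjustment, checked on simulated data. The chemokine genes, the lists and the rule for named genes (called genes first, then the measured partners of each ligand or receptor, and up to 3 called genes in each direction from other lists) were chosen with earlier results of these data known. The values of 1 receptor, included in the counts, are not reported here. Slide 1 and slide 2 each held 2 samples of each group. Same-numbered samples did not deviate together (correlations of 0.011, 0.010, 0.048 and -0.016), so the numbers were not used to pair samples. Alternatives changed the floor, filter, background correction, scaling, probe rule, blocks, spots left out and samples.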

Additional observations from a re-analysis of the deposited data

Results flagged for a closer look

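Of the 80 groups of 4 samples examined (40 genes in each of 2 groups), 5 held a sample that stood apart by Dixon's criterion, which chance alone gives in about 1 in 20 groups. Ccl17, a ligand of Ccr4 made by dendritic cells, stood at -2.48 in APL 2 and between -6.65 and -6.24 in the other APL samples. Cxcr3 stood at -5.15 in Control 1 and between -6.29 and -6.10 in the other Control samples. Ccl2 was lowest with APL in APL 3, at -0.76 beside -0.33 to -0.28. Ccl19 was lowest in Control 2, at -0.34 beside -0.17 in the other Control samples. Cxcl6 stood at -7.47 in Control 1, where the other Control samples were at the floor of -7.64.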

How the results depend on the processing

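Of the 16 called genes, 7 (Ccl2, Ccl20, Cxcl1, Cxcl6, Cxcl10, Cxcl12 and Cxcl16) kept direction and call in each of the 14 settings with all 8 arrays that tested them and without each of the 8 arrays, and 9 lost the call at least once. Ccl26 turned to 0.25 with normexp and the 75th percentile and Cx3cr1 to 0.033 with no scaling. Of 24 genes not called, 6 gained a call in at least 1 setting. The cause was not tested. The authors' table, a floor of 0.001, the mean of a gene's probes and the removal of population outlier spots (added after the data were seen) left the counts of called ligands and receptors as they were. Over all genes the median was -0.11 with quantile normalization. With no scaling it was 0.61, with 5849 genes higher and 1135 lower. With normexp and the 75th percentile it was 0.36, with 1040 higher and 973 lower. For ligands the median was 0.073 with quantile normalization, 0.98 with no scaling (2 lower), 0.50 with normexp and the 75th percentile (1 lower), 0.0081 with normexp and quantile normalization and 0.12 within slide 2. It was -0.16 (4 higher) with 2 arrays of each group above background. Receptors higher numbered 0 with a floor of 0.02, with no filter and with both normexp settings (1 each at an unadjusted p under 0.05, limma), and with 2 arrays of each group above background (0 unadjusted). That last filter left Cxcr3 untested. With no scaling 3 were higher, 1 was lower and the median was 0.65. With normexp and the 75th percentile 0 were lower (1 unadjusted) and the median was 0.43. Receptors lower numbered 1 with quantile normalization, with normexp and quantile normalization and with the slide as a block. With the replicate block 1642 genes were higher and 1616 lower, 2 ligands were lower, and 0 receptors were higher (1 unadjusted) and 1 was lower. Leaving out 1 array at a time gave 1606 to 2204 genes higher, 1777 to 2019 lower and a median of -0.06 to -0.0026. For ligands it gave 9 to 10 higher, 1 to 3 lower and a median of -0.012 to 0.52. For receptors it gave 0 to 1 higher, 1 lower and a median of -0.06 to 0.23. Signal over background limits the receptors, since 9 of 20 failed the filter.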
